A study of Homo sapiens with 8 samples.

Results

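The genes described here are 45 lysosomal genes, a list of acid hydrolases, their activators, membrane proteins of the organelle and 2 of its transcription factors. They were chosen by name, with earlier results of these data known, so the list is not independent of them. All 45 were among the 58302 gene identifiers of the count table, and 42 of them were among the 14133 genes with enough counts to be tested. They were measured by RNA sequencing in DLD1 cells, an established human colon cancer line, carrying lentiviral constructs for the wild-type tRNA m1A methyltransferase subunits TRMT6 and TRMT61A (OE-WT) or the empty lentiviral vector (CTRL). Each group is a stably transduced line that gave 2 libraries, each run on 2 lanes that share 1 column of the table, and the labels say only that each group was cultured in duplicate. The p-values therefore measure the spread between these libraries and not between independent lines. According to the labels, the RNA came from the supernatant of a centrifuged lysate of cells washed with cycloheximide, and poly(A) RNA was selected from it for strand-specific libraries.

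Lysosomes break down proteins, glycans, lipids and nucleic acids with acid hydrolases. Most of these enzymes are made at the endoplasmic reticulum with an N-terminal signal sequence, are glycosylated, receive a mannose 6-phosphate tag in the Golgi and are carried to the lysosome by receptors for that tag. Many of their genes carry a short palindromic element, called CLEAR, near the transcription start, which is bound by the transcription factors TFEB, TFE3 and MITF. Senescence-associated β-galactosidase staining, a common marker of senescent cells and one of the readouts of the study, detects the activity of the enzyme encoded by GLB1. The comparison of OE-WT with CTRL asks how the transcripts of this enzyme and of the rest of the organelle differed when TRMT6/61A was overexpressed.

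The CLEAR-type element was searched for as the 8 letters TCACGTGA in the RefSeq promoter windows of GRCh38.p14, which run from 250 bases before to 50 bases after each start site. This word is its own reverse complement, so 1 search covers both strands, and it contains the 6-letter E-box CACGTG. A window was at hand for 34 of the 45 genes, and 8 of them (23.5%) held the 8-letter word: CLN3, CTSA, GAA, GALNS, LAMP1, MCOLN1, PLBD2 and PLD3. Among all 27305 genes with a window, 1.18% held it, and among all 35116 windows 0.98% did. The sequences of 5 of the genes are shown, from plus strand windows of 30 bases with the word in capitals, because they run from one of the most reduced members, GAA, to one that did not pass the test, MCOLN1. For genes with 2 such words, the copy nearest to the start site is given.
GAA, chr17:80101538-80101567: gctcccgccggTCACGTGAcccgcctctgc
CTSA, chr20:45891298-45891327: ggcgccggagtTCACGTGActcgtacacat
LAMP1, chr13:113297226-113297255: cgcggcgcagcTCACGTGAcaagcgctgcc
PLD3, chr19:40348548-40348577: agtcgtaaccgTCACGTGAccgcccaccgt
MCOLN1, chr19:7522598-7522627: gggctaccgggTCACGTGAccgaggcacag
Distances are given to the start site of the RefSeq window, which can differ from the GENCODE gene coordinates used below. The sequences shown for GAA, CTSA and PLD3 lie after the GENCODE starts of these genes. The centre of the word lay 28 bases before the start site in GAA, 22 before it in CTSA and 2 after it in LAMP1. In PLD3 it lay 132 bases before the start site and in MCOLN1 11 bases before it. The E-box alone was in the windows of 12 of the 34 genes (35.3%) and of 8.77% of all genes. A match describes the letters of the window and does not show that a factor binds there. The genes without an entry were ARSA, ASAH1, CTSB, CTSS, HEXA, LAMP2, LGMN, MANBA, NAGLU, PSAP and SGSH.

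The libraries held between 10327498 and 12379671 counts. Both overexpressed genes were higher in OE-WT. TRMT6 had 211 and 181 CPM (read counts scaled to a common TMM library size) in OE-WT and 52.6 and 55.4 in CTRL, and TRMT61A had 138 and 130 against 58.9 and 56.8. Their log2 fold changes were 1.86 and 1.21 (adjusted p = 8.5e-13 and 1.9e-10, edgeR quasi-likelihood test, with p-values adjusted by Benjamini-Hochberg across the whole table). The epithelial identity of the line was visible in all libraries: the summed CPM of 10 epithelial markers, keratins and cadherins among them, ranged from 10985 to 12543. KRT8 (4973 to 6109 CPM) and KRT18 (3071 to 3932 CPM) gave most of this sum. CDX1, a marker of the intestinal epithelium, was near 0, and LGALS4 (0.933 to 1.21 CPM) and VIL1 (2.8 to 4.53 CPM) were low. Of the 9 markers tested, 3 (33.3%) fell and 2 rose, beside 11.6% and 9.44% of all genes tested, and nothing is read from these counts. The 8 markers of macrophages and other leukocytes, which are rich in lysosomes, summed to between 3.98 and 5.29 CPM, with AIF1 and TYROBP at 0 in all libraries. The 6 fibroblast markers summed to between 2.27 and 3.22 CPM, with COL1A2, COL3A1 and DCN at 0. In bulk RNA, fewer cells with an active gene cannot be told apart from less of its RNA per cell.

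Transcripts of the lysosome were lower in OE-WT than in CTRL in every class but the transcription factors. Of the 42 members tested, 31 (73.8%) fell and 0 rose at the adjusted threshold of 0.05, while 11.6% of all genes fell and 9.44% rose. The median log2 fold change of the 42 was -0.50, with a range from -1.07 to 0.12, beside a median of 0.01 for all genes tested. In 34 of the 42, both OE-WT libraries lay below both CTRL libraries, a pattern found in 30.2% of all genes tested, and in 0 of them did both OE-WT libraries lie above. The progranulin gene GRN and the cathepsin gene CTSZ were the 2 members past the thresholds of the study, a raw p under 0.05 together with a log2 fold change beyond 1 in either direction. Of all genes tested, 2.25% passed these in the lower direction and 0.899% in the higher one. That count was 1 without OE-WT replicate 1, where the log2 fold change of CTSZ was -0.85, and also 1 without CTRL replicate 1. It was 0 once a trend with GC content was removed and 3 with scaling by library size only.

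**Figure D1:**
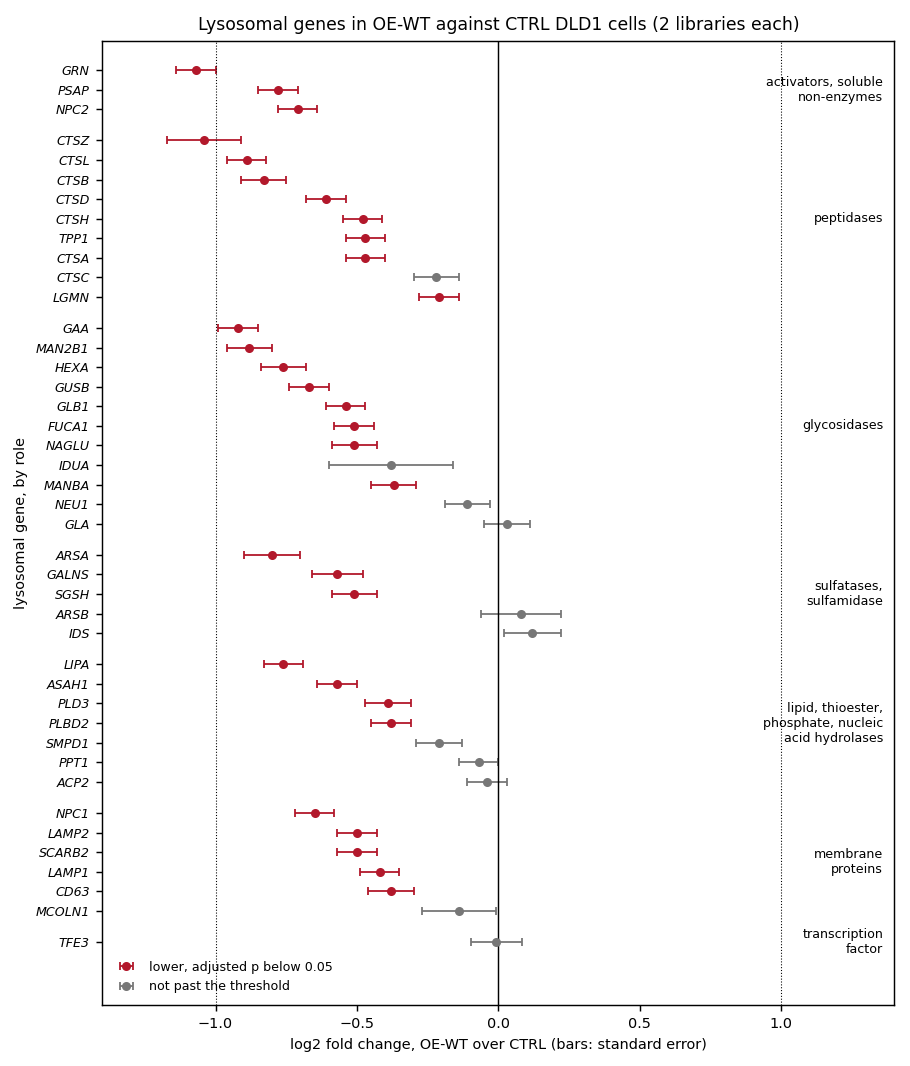
The log2 fold change of OE-WT over CTRL on the horizontal axis for each of the 42 lysosomal genes tested, grouped by role on the vertical axis, with bars for the standard error and dotted lines at -1 and 1. The 31 genes in red, lower at an adjusted p below 0.05, lie left of 0, and the 11 in grey, which did not pass, lie between -0.38 and 0.12.

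The summed level of all 45 members was 5341 and 5820 CPM in OE-WT and 8324 and 8028 in CTRL. In raw counts, without TMM scaling, the 45 members took 0.507% and 0.573% of all counts in OE-WT, against 0.865% and 0.82% in CTRL. The groups did not overlap on either scale. The ratio of the mean summed CPM, OE-WT over CTRL, was 0.683, and the single pairs of libraries gave ratios between 0.642 and 0.725. With 2 libraries against 2, the exact two-sided permutation test gave p = 0.33, the smallest value it allows. PSAP made up 15.6% of the sum in CTRL, and without it the ratio was 0.701.

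**Figure D2:**
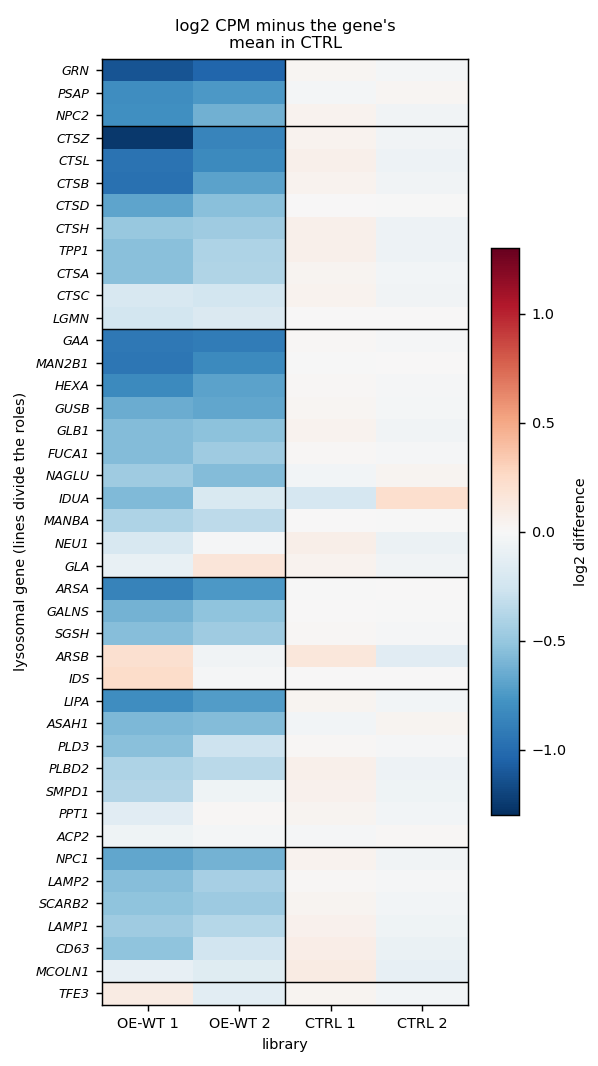
Colours give the log2 CPM of each lysosomal gene in each of the 4 libraries minus the mean log2 CPM of that gene in the 2 CTRL libraries, with rows grouped by role. The columns OE-WT 1 and OE-WT 2 are blue (lower) for most rows, and in OE-WT 1 the shift was often the deeper one, with summed levels of 5341 CPM there and 5820 CPM in OE-WT 2.

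The soluble activators and carriers had the lowest median of the classes. All 3 fell, with a median log2 fold change of -0.78 and summed levels in OE-WT at 0.562 of those in CTRL. GRN (ENSG00000030582, GRCh38 chromosome 17, 44345246 to 44353106) encodes progranulin, a secreted and lysosomal glycoprotein that is cut into granulins. It had 213 and 228 CPM in OE-WT and 472 and 458 in CTRL. Both OE-WT libraries lay far below both CTRL libraries, and the log2 fold change was -1.07 (standard error, SE, 0.07, adjusted p = 3.5e-10, edgeR quasi-likelihood test). PSAP (ENSG00000197746, chromosome 10, 71816298 to 71851251) encodes prosaposin, the precursor of the saposins, which present sphingolipids to their hydrolases. It had 731 and 761 CPM in OE-WT and 1253 and 1301 in CTRL, a log2 fold change of -0.78 (SE 0.07, adjusted p = 5.4e-08). NPC2 (ENSG00000119655, chromosome 14, 74476192 to 74494177), whose product hands cholesterol to NPC1 in the lysosome, had 135 and 152 CPM in OE-WT and 243 and 227 in CTRL. Its log2 fold change was -0.71 (SE 0.07, adjusted p = 3.6e-07). In all 3 genes the gap between the groups was several times the gap between libraries of a group.

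Among the peptidases, 8 of the 9 tested fell, with a median log2 fold change of -0.48, and their summed level in OE-WT was 0.655 of that in CTRL. CTSZ (ENSG00000101160, chromosome 20, 58985686 to 59008238), a carboxypeptidase and one of the less abundant cathepsins, had 12.1 and 15.9 CPM in OE-WT and 29.7 and 28 in CTRL. Its log2 fold change was -1.04 (SE 0.13, adjusted p = 4.3e-06, edgeR quasi-likelihood test). The replicates of OE-WT were further apart for this gene than those of CTRL, and both lay below CTRL. CTSL (ENSG00000135047, chromosome 9, 87724051 to 87731469), a cysteine endopeptidase, had 70.3 and 76.8 CPM in OE-WT and 143 and 130 in CTRL, a log2 fold change of -0.89 (SE 0.07, adjusted p = 3.8e-08). CTSB (ENSG00000164733), a cysteine protease with endopeptidase and dipeptidase activity, had 306 and 369 CPM in OE-WT and 620 and 580 in CTRL, a log2 fold change of -0.83 (SE 0.08, adjusted p = 1.7e-07). For both, every OE-WT value was below every CTRL value.

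The aspartic protease gene CTSD was the most abundant peptidase, with 471 and 517 CPM in OE-WT and 757 and 755 in CTRL, and its log2 fold change was -0.61 (adjusted p = 1.2e-06). On the same strand, 62.1% of its canonical transcript is overlapped by another annotated gene, so its counts depend on how shared reads were assigned. The aminopeptidase gene CTSH, the tripeptidyl peptidase gene TPP1 and CTSA, which encodes the protective protein of the β-galactosidase and neuraminidase complex, fell by 0.48, 0.47 and 0.47 on the log2 scale. CTSA had 126 and 140 CPM in OE-WT and 188 and 180 in CTRL (adjusted p = 5.0e-05, edgeR quasi-likelihood test). On the opposite strand, other annotated genes together overlap 24.1% of its canonical transcript. At the edge of the threshold stood LGMN, the asparaginyl endopeptidase that processes several cathepsins, and CTSC, a dipeptidyl peptidase. LGMN had 112 and 116 CPM in OE-WT and 132 and 132 in CTRL, a log2 fold change of -0.21 with an adjusted p of 0.028, just inside. CTSC had 44.6 and 43.8 CPM in OE-WT and 53.1 and 50 in CTRL, a log2 fold change of -0.22 with an adjusted p of 0.055, just outside. The LGMN call was lost in 5 of the 11 alternatives, with an adjusted p of up to 0.173 without OE-WT replicate 1, 0.103 without CTRL replicate 1 and 0.092 without CTRL replicate 2. CTSC, in turn, passed in 3 of the 11, with an adjusted p of 0.0090 by library size only, 0.047 with at least 10 counts required in each library and 0.012 with a GC trend removed. CTSS, a cathepsin of antigen-presenting cells, had 3 and 5 counts in OE-WT against 2 and 0 in CTRL and was not tested.

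Of the 11 glycosidases, 8 fell, and their median log2 fold change was -0.51. GAA (ENSG00000171298, chromosome 17, 80101533 to 80119881), the acid α-glucosidase that degrades glycogen, had 94.1 and 95.4 CPM in OE-WT and 182 and 177 in CTRL. Its log2 fold change was -0.92 (SE 0.07, adjusted p = 5.5e-09, edgeR quasi-likelihood test). MAN2B1 (ENSG00000104774, chromosome 19, 12646511 to 12666742), an α-mannosidase of glycoprotein breakdown, had 34.6 and 37.4 CPM in OE-WT and 66.3 and 66.5 in CTRL, a log2 fold change of -0.88 (SE 0.08, adjusted p = 1.3e-07). Other annotated genes together overlap 35.7% of its canonical transcript on the same strand. HEXA (ENSG00000213614, chromosome 15, 72340924 to 72376420), the α subunit of β-hexosaminidase, had 44 and 48.3 CPM in OE-WT and 79.1 and 77.4 in CTRL, a log2 fold change of -0.76 (SE 0.08, adjusted p = 4.7e-07). GUSB (ENSG00000169919, chromosome 7, 65960684 to 65982215), the β-glucuronidase, had 67.3 and 65.9 CPM in OE-WT and 107 and 104 in CTRL, a log2 fold change of -0.67 (SE 0.07, adjusted p = 7.3e-07). In each of these 4 genes the libraries of a group lay close together and the groups did not overlap.

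GLB1 (ENSG00000170266, chromosome 3, 32996609 to 33097202), the β-galactosidase behind the senescence stain, had 122 and 124 CPM in OE-WT and 186 and 174 in CTRL. The means were 123 ± 1.71 and 180 ± 8.48 CPM (SD, n = 2 libraries each), and the level in OE-WT was 68.6% of that in CTRL. The log2 fold change was -0.54 (SE 0.07, adjusted p = 5.5e-06, edgeR quasi-likelihood test), and it ranged from -0.64 to -0.50 over the 11 alternatives. GLB1 transcripts were thus lower, and not higher, in OE-WT in all 4 pairs of libraries. These are transcript levels, and enzyme activity was not measured by this sequencing. The paper reports increased activity by the stain in OE-WT DLD1 and HCT116 cells, a different measure from the transcript level. FUCA1, a fucosidase, and NAGLU, an N-acetylglucosaminidase of heparan sulfate, each fell by 0.51 on the log2 scale, and MANBA, a β-mannosidase, fell by 0.37. With a GC trend removed the log2 fold change of NAGLU was -0.33. The remaining glycosidases did not pass the test. The sialidase gene NEU1 had 70.8 and 80.9 CPM in OE-WT and 86 and 77.8 in CTRL, overlapping groups with a log2 fold change of -0.11. GLA, the α-galactosidase, had a log2 fold change of 0.03, and IDUA, the iduronidase, had -0.38 with an SE of 0.22 at only 4.03 to 6.98 CPM.

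Among the sulfatases and the sulfamidase, 3 of 5 fell. ARSA (ENSG00000100299, chromosome 22, 50622754 to 50628173), the arylsulfatase of sulfatide breakdown, had 20.1 and 21.9 CPM in OE-WT and 36.5 and 36.8 in CTRL, a log2 fold change of -0.80 (SE 0.10, adjusted p = 6.0e-06, edgeR quasi-likelihood test). GALNS, which acts on keratan and chondroitin sulfate, and SGSH, the heparan sulfamidase, fell by 0.57 and 0.51 on the log2 scale. ARSB and IDS, which remove sulfate from dermatan sulfate, had log2 fold changes of 0.08 and 0.12 (adjusted p = 0.749 and 0.434). For IDS, 90.7% of the canonical transcript is overlapped by another annotated gene on the same strand. The class was thus split, with overlapping groups in the 2 genes that did not pass.

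Of the 7 hydrolases of lipids, thioesters, phosphate esters and nucleic acids, 4 fell. LIPA (ENSG00000107798, chromosome 10, 89213569 to 89414557), the acid lipase that frees cholesterol from its esters, had 96.5 and 102 CPM in OE-WT and 173 and 164 in CTRL. Its log2 fold change was -0.76 (SE 0.07, adjusted p = 9.7e-08, edgeR quasi-likelihood test). ASAH1, the acid ceramidase, fell by 0.57, PLD3, a nuclease, by 0.39 and PLBD2, a phospholipase B-like protein, by 0.38 on the log2 scale. The adjusted p of PLD3 was 9.8e-04, and it was 0.052 once a trend with GC content was removed, where the log2 fold change was -0.21. Without OE-WT replicate 1 that fold change was -0.26, and without OE-WT replicate 2 it was -0.54. The sphingomyelinase gene SMPD1 had 96 and 120 CPM in OE-WT and 130 and 120 in CTRL, and its groups overlapped (log2 fold change -0.21, adjusted p = 0.084). This value depended on single libraries: it was -0.05 (adjusted p = 0.766) without OE-WT replicate 1, -0.39 (adjusted p = 2.4e-04) without OE-WT replicate 2 and -0.26 (adjusted p = 0.023) without CTRL replicate 2. It also passed with scaling by library size only (adjusted p = 0.012), and it was -0.08 (adjusted p = 0.505) with a GC trend removed. PPT1, a thioesterase that removes palmitate from proteins, and ACP2, the lysosomal acid phosphatase, had log2 fold changes of -0.07 and -0.04. PPT1 was among the most abundant members, with 444 and 499 CPM in OE-WT and 505 and 482 in CTRL, and its groups overlapped.

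Of the 6 membrane proteins tested, 5 fell, with a median log2 fold change of -0.46. LAMP1 (ENSG00000185896, chromosome 13, 113297239 to 113323672) and LAMP2 (ENSG00000005893, chromosome X, 120426148 to 120469365) encode the major glycoproteins of the lysosomal membrane. LAMP1 had 208 and 221 CPM in OE-WT and 298 and 274 in CTRL, a log2 fold change of -0.42 (SE 0.07, adjusted p = 1.3e-04, edgeR quasi-likelihood test). LAMP2 had 110 and 120 CPM in OE-WT and 164 and 160 in CTRL, a log2 fold change of -0.50 (SE 0.07, adjusted p = 1.9e-05). Neither gene had groups that overlapped. NPC1, the cholesterol exporter that receives its cargo from NPC2, had 90.5 and 94.3 CPM in OE-WT and 149 and 140 in CTRL, a log2 fold change of -0.65. SCARB2, the receptor that carries β-glucocerebrosidase to lysosomes, fell by 0.50 and the tetraspanin gene CD63 fell by 0.38 on the log2 scale. With DESeq2 the adjusted p of CD63 was 0.115, and without OE-WT replicate 1 its log2 fold change was -0.24. The calcium channel gene MCOLN1 had a log2 fold change of -0.14 (adjusted p = 0.512). CLN3, a multipass membrane protein of the lysosome, had 1 and 5 counts in OE-WT against 2 and 2 in CTRL and was not tested, and 100% of its canonical transcript is overlapped on the same strand by another annotated gene.

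The 2 transcription factors of the list gave little to compare. TFE3 (ENSG00000068323, chromosome X, 49028726 to 49043410) had 46.9 and 39.6 CPM in OE-WT and 44.6 and 42.3 in CTRL, so the OE-WT libraries lay on either side of CTRL. Its log2 fold change was -0.0071 (SE 0.09, adjusted p = 0.967). TFEB (ENSG00000112561, chromosome 6, 41683978 to 41736259) had 1 and 9 counts in OE-WT against 4 and 4 in CTRL, too few to test. Their transcripts do not measure where the proteins are, and location in the cell is how their activity is known to be controlled.

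Abundant and rare members could be compared only per length. Per kilobase of canonical transcript, the most abundant members in CTRL were CD63 (544 CPM per kb), PSAP (465), CTSD (368), NPC2 (286) and GRN (218), and the lowest of those tested were ARSB (3.22) and IDUA (2.79). In OE-WT the same scale gave 418 for CD63, 271 for PSAP, 240 for CTSD, 175 for NPC2 and 104 for GRN. PPT1 stood beside GRN in CTRL, at 216 against 218, and above it in OE-WT, at 206 against 104. Of the 21 members with the higher mean CPM, not scaled by length, 19 fell, and of the 21 with the lower mean CPM 12 fell. Their median log2 fold changes were -0.51 and -0.39. The number called depends on how many counts a gene has, so these numbers do not show that abundant members fell more often. The members below and above their median GC content had medians of -0.50 and -0.51.

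**Figure D3:**
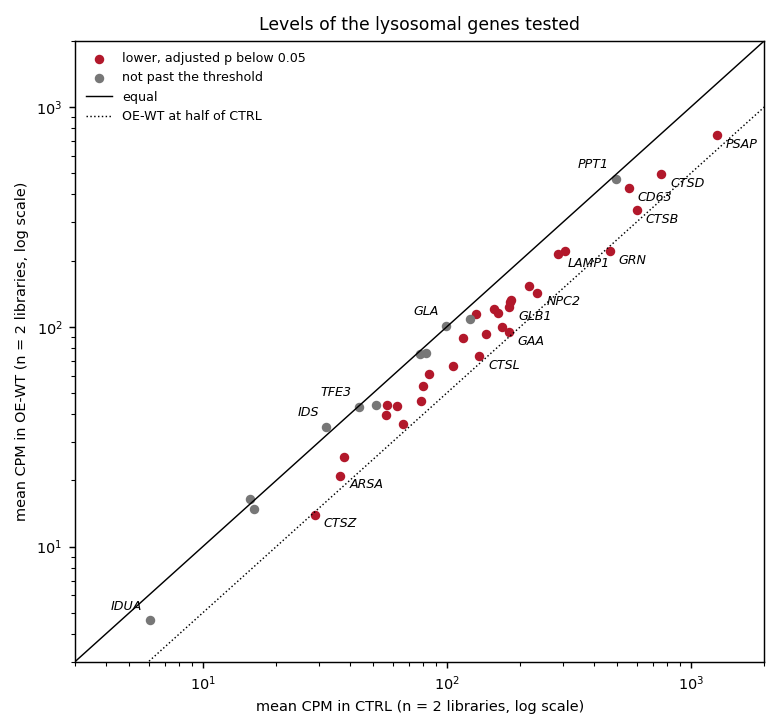
Mean CPM in CTRL (horizontal) against mean CPM in OE-WT (vertical) for the 42 lysosomal genes tested, on log axes, each mean over 2 libraries. Points in red passed an adjusted p of 0.05 and lie below the line of equality at all levels from CTSZ to PSAP, and GRN and CTSZ lie just below the dotted line where OE-WT is 0.5 of CTRL.

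Members fell both with and without the exact 8-letter word, where 11.6% of all genes tested fell, with a median log2 fold change of 0.01. Lacking the word does not mean lacking the E-box inside it, which ARSB, CD63, CTSD and NEU1 held without the word. Of the 7 tested members with the word in a promoter window, 6 fell, with a median log2 fold change of -0.42. Of the 25 with a window that lacks it, 15 fell, with a median of -0.48. Of the 10 with no entry in the promoter table, 10 fell, with a median of -0.54. The difference between these groups was not tested.

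A feature shared by most of the members was the hydrophobic N-terminus of their proteins, defined as a stretch of 11 residues among the first 40 with a mean hydropathy (Kyte-Doolittle scale) of 2.0 or more in the protein predicted from the canonical transcript. It was found in 37 of the 45 members (82.2%) and in 24.7% of 19742 protein-coding genes, and with a minimum of 1.5 it was found in 40 members (88.9%) and in 34% of protein-coding genes. All 45 held at least 1 N-glycosylation sequon (N, any residue but proline, then S or T), beside 76.4% of protein-coding genes. A sequon is a match of letters and does not show glycosylation: the transcription factors TFEB and TFE3 held 1 each. Protein length was not matched in this comparison. The segment was also read outside the lysosomal list. Of 1946 other genes with it, 32.7% fell and 5.04% rose, with a median log2 fold change of -0.20. Of 9610 genes without the segment, 8.82% fell and 11.3% rose, with a median of 0.04. Among the members, 27 of the 36 tested with the segment fell (median -0.50) and 4 of the 6 without it fell (median -0.53). This split depends on the minimum of 2.0, since GRN (1.909), GUSB (1.809) and MAN2B1 (1.536), all lower in OE-WT, lack the segment at 2.0 but hold it at 1.5. The tested members without it at 1.5 were PLD3, MCOLN1 and TFE3. Of these, PLD3 fell by 0.39 on the log2 scale, and MCOLN1 (-0.14) and TFE3 (-0.0071) did not pass. The part of this wider difference, and of the lysate supernatant that the RNA was taken from, in the lower lysosomal transcripts was not tested.

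The other genes of the organelle were read from 6 lists of 141 genes. Of those tested, 44 fell and 8 rose, with most of the decreases in the lists of other hydrolases and other membrane proteins. Among all genes tested, 11.6% fell and 9.44% rose. Of 27 other hydrolases and cofactors tested, 18 (66.7%) fell and 0 rose, with a median log2 fold change of -0.36. The largest decreases were those of GM2A, the activator of ganglioside breakdown by HEXA, with 94.7 and 119 CPM in OE-WT against 182 and 175 in CTRL, and of PRCP, a carboxypeptidase, with 109 and 120 against 198 and 184. Both had a log2 fold change of -0.74 (adjusted p = 1.6e-06 and 2.0e-07, edgeR's quasi-likelihood test). Of 25 other membrane proteins tested, 13 (52%) fell and 1 rose, with a median of -0.32. GLMP, a glycosylated protein of the lysosomal membrane, fell by 0.75 and the peptide transporter gene SLC15A4 fell by 0.57, while CLN6, an endoplasmic reticulum protein that assists the export of lysosomal enzymes, rose by 0.37 on the log2 scale.

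In the proton pump and the sorting machinery the shares of genes that passed the test were nearer to those of all genes, of which 11.6% fell and 9.44% rose. Of 17 subunits of the V-ATPase tested, which acidifies the lysosome, 3 (17.6%) fell and 1 rose, with a median log2 fold change of -0.03, and nothing is read from these counts about the pump as a whole. The accessory subunit genes ATP6AP2 and ATP6AP1 fell by 0.38 and 0.34, and ATP6V1A, the catalytic subunit, rose by 0.33. Of 22 genes of mannose 6-phosphate tagging and sorting, 5 (22.7%) fell and 2 rose, with a median of 0.04. The sorting receptor gene SORL1 had 71.3 and 60.9 CPM in OE-WT and 105 and 104 in CTRL, and SORT1, the sortilin gene, had 44.9 and 50.7 against 74.1 and 76.1. Their log2 fold changes were -0.66 and -0.65. GNPTAB, the phosphotransferase that begins the tag, rose by 0.62 (9.87 and 11.5 CPM against 7.85 and 6.01), and AP1B1, an adaptor subunit, rose by 0.25. Of the receptors for the tag, IGF2R fell by 0.30, and M6PR had a log2 fold change of 0.04 (adjusted p = 0.753). The 2 receptors thus gave different results in the same libraries, and the difference between them was not tested.

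The regulators of the organelle and the autophagy genes were also near the shares of all genes (11.6% lower and 9.44% higher), so the genes named from them are single values and not a result about either list. Of 17 tested genes for MiT/TFE factors and their regulators, 1 (5.88%) fell and 2 rose, with a median log2 fold change of 0.05. FLCN, the folliculin gene, fell by 0.39 (adjusted p = 0.047), and the 14-3-3 genes YWHAG and YWHAB rose by 0.34 and 0.21. MITF had between 4.2 and 5.54 CPM in the 4 libraries and a log2 fold change of 0.12 (adjusted p = 0.741), and TFEC was at 0 in all of them. Of 26 autophagy and lysosome fusion genes, 4 (15.4%) fell and 2 rose, with a median of -0.02. ULK1, a kinase that starts autophagy, had 19.2 and 18.8 CPM in OE-WT and 34 and 31.2 in CTRL, a log2 fold change of -0.78 (adjusted p = 1.6e-05). PLEKHM1, an adaptor of lysosome fusion, fell by 0.52. VPS41 and VPS33A, subunits of the tethering complex HOPS, rose by 0.64 and 0.51, with 4.66 to 7.93 CPM in CTRL and 7.96 to 10.7 in OE-WT. The 8 increases over the 6 lists were 4 without CTRL replicate 1 and 5 without OE-WT replicate 1, and the 44 decreases were 29 with DESeq2.

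**Figure D4:**
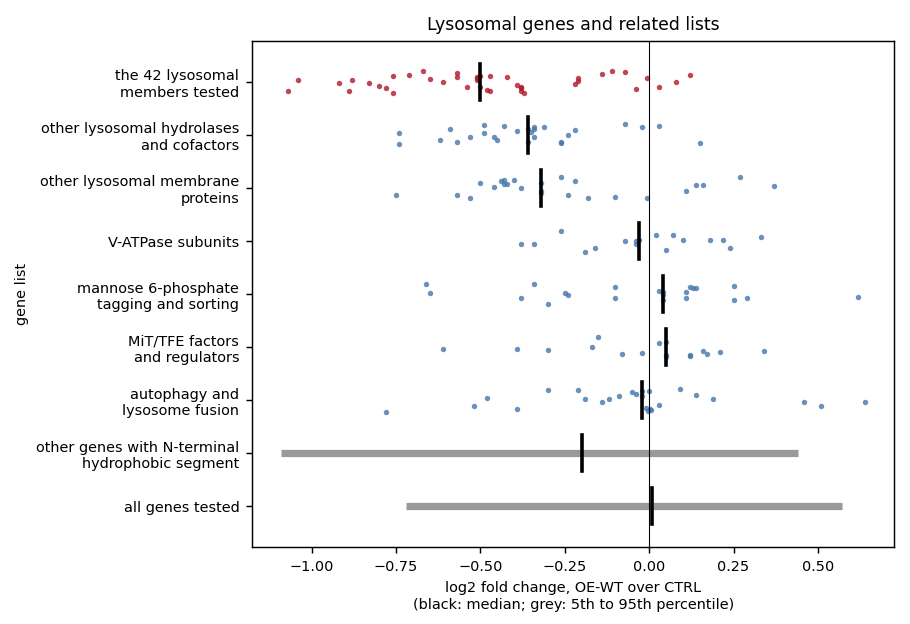
The log2 fold change of OE-WT over CTRL (horizontal) for the 42 lysosomal genes tested (red), for the tested genes of 6 related lists (blue, with vertical scatter for legibility only), and as the 5th to 95th percentile (grey bars) for other genes with an N-terminal hydrophobic segment and for all genes tested. Black lines mark medians, which were -0.50 for the lysosomal genes, -0.36 and -0.32 for the other hydrolases and membrane proteins, between -0.03 and 0.05 for the other 4 lists, -0.20 for genes with the segment and 0.01 for all genes.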

How the data were processed

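The authors deposited raw counts of reads per gene for 4 libraries, with the lanes of each library merged. The submitters' processing notes name HISAT2 2.2.1, featureCounts 2.0.0 and DESeq2 1.34.0 on GRCh38. The RNA-seq methods of the study name HTSeq and edgeR, while its methods for sequencing ribosome-protected fragments name HISAT2, feature counts and DESeq2. The methods describe 3 biological replicates and removal of ribosomal RNA, whereas the labels give 2 libraries per group and poly(A) selection. The annotation release and the strand setting of the counting are not given in the sources used here, so reads shared by overlapping genes may have been set aside or split. Smaller same-strand overlaps than those given above included 19% of the canonical transcript of TPP1, 15.3% of NAGLU, 12.9% of HEXA and 5.39% of GLB1. GENCODE release 44 gave symbols for 57532 of 58302 identifiers and all coordinates.

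Counts were analysed with edgeR 4.0.16 in R 4.3.3. Genes were filtered by group with a minimum count of 10, scaled by TMM and tested by quasi-likelihood on group alone. The p-values of all 14133 genes were adjusted together by Benjamini-Hochberg. Standard errors (SE) were derived from the fold change and its F statistic. The script was tested on simulated data. Totals of 10327498 to 12379671 counts set the floor of a count of 0 (3 counts) at 0.242 to 0.29 CPM, for counting error only.

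The members, the related lists and the marker lists were chosen with earlier results of these data known. Named with full values were GLB1, GRN, LAMP1, LAMP2, TFEB, TFE3, the 12 members with the largest log2 fold changes past an adjusted p of 0.05, members next to the threshold, and up to 2 decreases and 2 increases of each related list. IGF2R, M6PR, MITF and the other members with printed CPM were added after their values were seen. Lists were described by counts and medians. Alternatives comprised a replicate block, removal of a GC trend (lowess, span 0.3), DESeq2 1.42.0, scaling by RLE or by library size only, a filter of 10 counts per library or of 1 count in total, and leaving out each library. Figures were drawn with matplotlib 3.10.9. Other assays of the study were not analysed here.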

Additional observations from a re-analysis of the deposited data

How the results depend on the processing

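The count of members that fell was 31 and lay between 29 (DESeq2) and 33 (library size only) over the 11 alternatives, and 0 rose in each. Of the 31, 28 were called lower in every alternative, the exceptions being LGMN, PLD3 and CD63. Scaling by library size only moved the median of the members to -0.59, the median of all genes to -0.08, the summed ratio to 0.641, the related genes that rose to 4, and the calls over all genes to 2451 lower and 733 higher. DESeq2 called 855 genes lower and 522 higher, and 29 related genes lower and 2 higher. Without a filter 3 related genes rose, and 844 of all genes did. With the GC trend removed 0 members passed the fold threshold, and with scaling by library size only 3 did. Leaving out 1 library in turn, with the lone library assumed to vary like the other group, gave a median between -0.56 and -0.46, a summed ratio between 0.653 and 0.712, 30 to 32 members that fell, 1 to 2 past the fold threshold, 30 to 47 related genes that fell and 4 to 9 that rose. Members that did not pass changed sign: GLA (-0.06) and ARSB (-0.02) by library size, and, with a library left out, GLA (-0.11 to 0.15), ARSB (-0.06 to 0.23), IDS (-0.01 to 0.23), PPT1 (-0.16 to 0.02) and TFE3 (-0.13 to 0.10), and ACP2 (0.04), MCOLN1 (0.0052) and TFE3 (0.11) with the GC trend removed. The cause of these shifts was not tested. With the replicate block 30 members fell (LGMN, adjusted p = 0.085). The numbers are not said to pair the cultures, and deviations of same-numbered libraries correlated at -0.0681. CTSC and SMPD1, which did not pass, each passed in 3 alternatives. CTSS, TFEB and CLN3 had 0 to 9 counts, too few to test, and the cause of these low counts was not tested.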
